A study of Homo sapiens with 32 samples.

Results

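Very wide m6A domains are stretches of the genome where RNA pulled down with an antibody against N6-methyladenosine (m6A) gave a peak of 2000 bp or more. They were chosen by width alone: every peak of the 3 deposited lists on chromosomes 1 to 22 that spanned at least 2000 bp was taken, and such wide peaks were merged to 1 domain where they overlapped, whatever their library. This gave 2450 domains from 6067 of 409726 peaks. All peaks merged in the same way form 168125 regions, so the domains number 1.46% of them. Shares given below for all merged regions use these regions' own outlines. Width, and any count that follows from it, is therefore given as a description without a test.

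The cells were PANC-1, an established human line of pancreatic ductal adenocarcinoma. The 3 lists come from untreated control cells, from cells labelled KO CFL1 and from cells labelled KO METTL3, each with 2 antibody libraries and 2 inputs of total RNA (12 of the 32 samples in the labels). CFL1 encodes cofilin, which severs actin filaments, and METTL3 encodes the catalytic subunit of the m6A writer. Each library is named here by the digit in its peak names: 1 or 2 for control, and 3 or 5 for either knockout, which are not the labels' replicate numbers. The peak names of both knockouts carry the letters si, which the labels do not explain, and neither the number of clones nor the loss of either protein can be read from peak lists. Whether both libraries of a group stem from different cultures is not stated, and the p-values below then measure only the spread between these libraries, which may be technical. PANC-1 identity could not be checked against marker genes, because the lists name none.

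As background, METTL3 acts in a complex with METTL14 and other subunits and methylates adenosines within a short consensus sequence in nascent RNA. In mature transcripts m6A is known to be dense near stop codons and inside unusually long exons, and it is also found on long noncoding RNAs and on RNA of retained introns and enhancers. The antibody method recovers fragments rather than single bases, so neighbouring modified sites can be called as 1 broad peak. The deposited lists give positions on build hg19 but no gene names, and an annotation or genome of that build was not used here, so the domains are named by position and no sequence is shown.

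Libraries held 61237 to 77104 peaks on these chromosomes, fewer in each knockout library than in either control library. The median width of all peaks was 332 to 364 bp. Read depth is unknown from the lists. The number in the peak names skips values: 22.5 to 28.6% of numbers were missing in control and 41.8 to 50.2% in the knockout libraries. The folder part of the peak names also differs between the 3 lists, so separate handling of the lists and the genotype cannot be told apart.

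Domains were mostly little wider than the threshold, with a long tail. Their median width was 2473.5 bp (quartiles 2206 and 3033 bp), 646 reached 3000 bp, 100 reached 5000 bp and 11 reached 10000 bp. Together they covered 6.95 Mb, or 8.40% of the length under any peak. There was no gap in width around the threshold. Just inside it lay peaks of 2000 bp at chr8:8233657-8235656 in control 1 (fold enrichment 12.4), at chr1:52703136-52705135 in METTL3 knockout 3 (16.5) and at chr19:58369771-58371770 in CFL1 knockout 5 (9.36). Just outside lay peaks of 1999 bp at chr1:247149487-247151485 in control 1 (fold 13.8) and at chr5:127324637-127326635 in METTL3 knockout 3 (13.3), and of 1998 bp at chr19:39600615-39602612 in control 2 (4.94).

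Wide peaks were more numerous in the knockouts, and the excess grew with width. Control 1 held 785 peaks of 2000 bp or more and control 2 held 928. CFL1 knockout 3 and 5 held 1019 and 1097, and METTL3 knockout 3 and 5 held 1234 and 1004, so every knockout library lay above both control libraries. The group means were 856.5 ± 101, 1058 ± 55.2 and 1119 ± 163 (SD, n = 2 each). At 3000 bp or more the counts were 123 and 148 for control, 231 and 260 for CFL1 knockout and 259 and 209 for METTL3 knockout. At 5000 bp or more control held only 4 and 3, against 42 and 40 in the CFL1 knockout and 31 and 25 in the METTL3 knockout. The widest control peak spanned 5964 bp, while the widest CFL1 knockout peak spanned 26803 bp and the widest METTL3 knockout peak 26874 bp. As a share of all peaks of a library, wide peaks made up 1.04 to 1.204% for control, 1.45 to 1.72% for CFL1 knockout and 1.61 to 2.02% for METTL3 knockout. The bars of wide peaks by library show these counts.

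**Figure D1:**
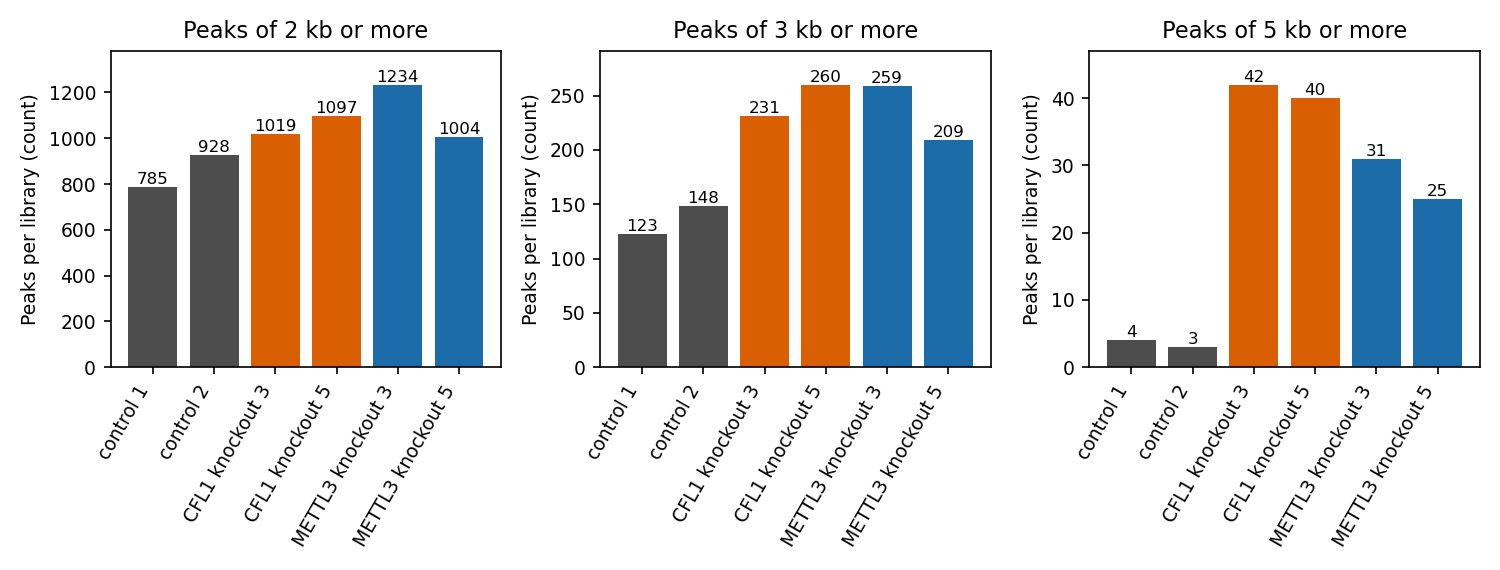
Number of peaks per library (vertical axes, counts from 0) at widths of at least 2, 3 and 5 kb, 1 bar per library. Control libraries are grey, CFL1 knockout orange and METTL3 knockout blue; the 4 knockout libraries stand above both control libraries in each panel, most of all at 5 kb, where control holds 4 and 3 peaks.

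Most domains were wide in few libraries yet marked in all. Of the 2450 domains, 986 (40.2%) had a wide peak in 1 library only, 568 in 2, and 214 (8.73%) in all 6, against 0.128% of all merged regions. By contrast 2194 (89.6%) held a peak of some width in all 6 libraries. The share was 64.9% for regions whose widest peak had 1000 bp up to the threshold and 10.9% for all merged regions. A domain of 2000 bp or more meets a peak by 1 bp more easily than a merged region, of median width 320 bp. The part of length in these shares was not tested. Even among the domains wide in 1 library, 789 (80.0%) held peaks in all 6, and the widest peak of the other libraries had a median width of 1625 bp. Exactly 1 domain was supported by a single library. Domains wide in more libraries were wider, with a median of 2235 bp for 1 library and 3245 bp for all 6, although merging more peaks can only widen a domain. Among sets of libraries, 234 domains were wide in METTL3 knockout 3 alone, 222 in CFL1 knockout 3 alone, 156 in the 2 control libraries alone and 138 in the 4 knockout libraries alone.

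**Figure D2:**
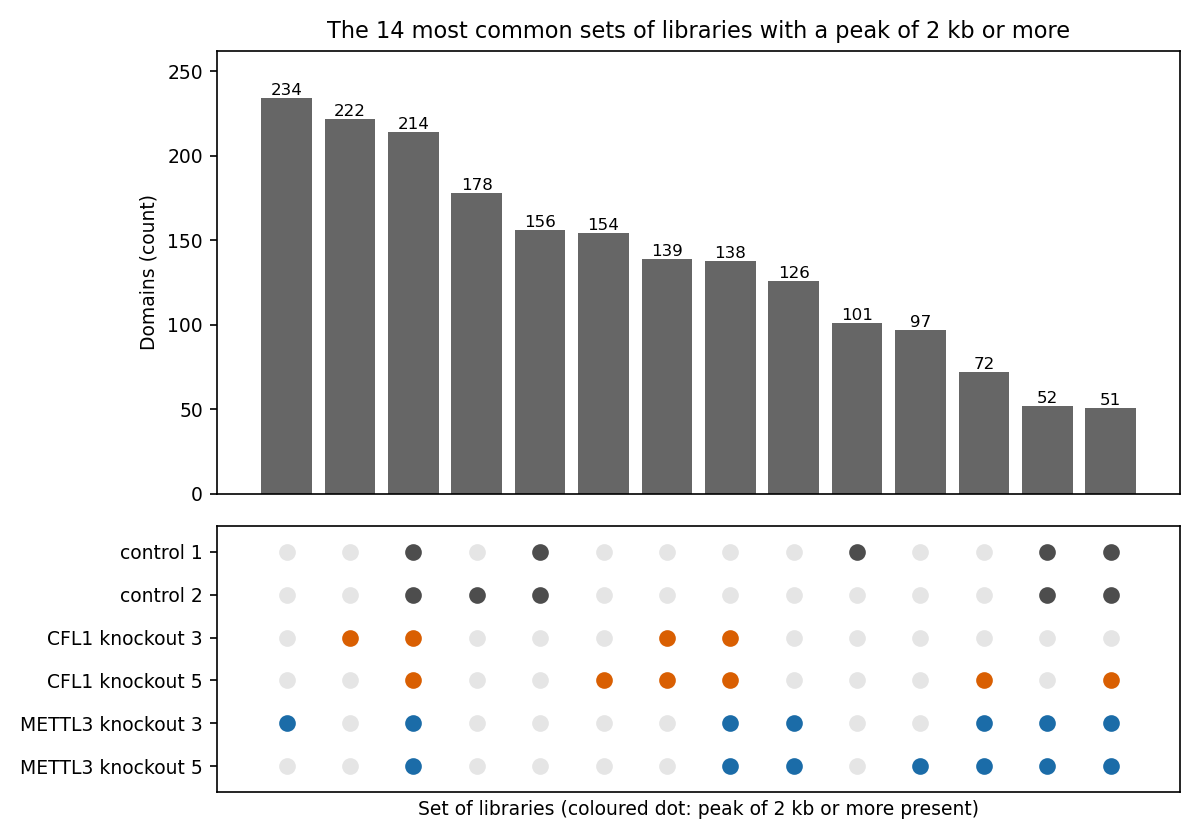
Domains (vertical axis of the upper panel, counts) in the 14 most common sets, by the set of libraries in which they hold a peak of 2 kb or more; dots in the lower panel show the libraries of each set. The largest sets are METTL3 knockout 3 alone (234), CFL1 knockout 3 alone (222) and all 6 libraries (214).

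Wide peaks were shared most often within a group. Each library's wide peaks were looked up in the other 5, so that the width in the library searched played no part in the choice. Between the 2 libraries of a group, 63.2% to 79.2% of wide peaks met another wide peak. Between the 2 knockouts the share was 43.8% to 61.6%. Wide control peaks met a wide knockout peak in 36.1% to 55.5% of cases, and wide knockout peaks met a wide control peak in 30.5% to 43.6%. Counted against peaks of any width, the shares were 99.9% to 100% within groups, 96.2% to 97.0% for control peaks in a knockout and 92.7% to 97.0% for knockout peaks in control. For peaks of 1000 bp up to the threshold the shares were 85.8% to 87.9% for control peaks in a knockout and 82.7% to 89.1% for knockout peaks in control. Over all peaks the shares were 36.1% to 38.4% and 38.8% to 47.4%, but a wide peak meets another by 1 bp more easily than a narrow one. Over their length, wide control peaks were covered to 72.5% to 81.2% by knockout peaks, and wide knockout peaks to 63.2% to 74.7% by control peaks.

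Domains were filled less completely in control than in the knockouts. Averaged over domains, peaks of any width covered 66.7% and 68.1% of the domain for control 1 and 2, 75.4% and 78.5% for CFL1 knockout 3 and 5, and 78.3% and 75.3% for METTL3 knockout 3 and 5. All knockout libraries lay above both control libraries, by 9.58 percentage points for the CFL1 knockout and 9.45 for the METTL3 knockout. At least 1 peak was present in 93.3% and 94.0% of domains in control, 97.6% and 98.1% in the CFL1 knockout and 97.2% and 97.3% in the METTL3 knockout. Of the 6 libraries that set the domains' outlines, 4 were knockouts, and the same peaks whose width chose the domains make up the coverage, so both differences are given as a description with no test. With domains drawn from 1 control and 1 knockout library and measured in the other 2, a choice made after seeing the data, the excess in coverage was 9.69 and 3.17 points for the CFL1 knockout and 7.94 and 6.05 for the METTL3 knockout. In domains with a peak the same choice gave 3.09 and 1.06 points for the CFL1 knockout and 2.47 and 0.270 for the METTL3 knockout. This choice does not remove the effect of the rule. Within a group 63.2% to 79.2% of wide peaks met another wide peak, so the libraries measured resemble those that drew the domains. Without METTL3 knockout 3 the METTL3 knockout excess was 5.86 points in coverage and 1.96 in domains with a peak.

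Domain by domain, the direction went both ways. In 948 domains (38.7%) all 4 knockout libraries covered more of the domain than both control libraries, against 6.56% of all merged regions and 24.6% of the 10466 regions whose widest peak had 1000 bp up to the threshold. In 506 domains (20.7%) all 4 covered less, against 18.7% of all merged regions and 27.7% of the narrower class. Taken singly, CFL1 knockout libraries lay above both control libraries in 1214 domains (49.6%, against 13.2% of all merged regions) and below in 709 (28.9%, against 21.2% of all merged regions). METTL3 knockout libraries lay above in 1253 (51.1%, against 13.5% of all merged regions) and below in 643 (26.2%, against 20.6% of all merged regions). Both knockouts were set against the same control libraries. Coverage is made of the peaks whose width chose the domains, and 4 of the 6 libraries behind these were knockouts. A region without a peak in each knockout library compared cannot count as above control. Peaks in all 6 libraries were held by 10.9% of all merged regions and 89.6% of domains. The counts are therefore a description with no test, and no effect of the knockouts is read from the gap to all merged regions. Coverage was above control in both CFL1 knockout libraries and below it in both METTL3 knockout libraries in 62 domains (2.53%), against 0.386% of all merged regions and 1.96% of the narrower class. The reverse held in 62 domains (2.53%), against 0.514% and 2.21%. Where a library had no wide peak in a domain but held narrower ones, their median number was 2 in every library, with at most 11, and together they covered a median of 63.1 to 73.2% of the domain. Between 2.31% and 3.86% of the gaps between peaks of 1 library inside a domain, wide peaks included, held a skipped peak number. Whether the numbers count peaks as they were called is not stated, so the part of removed peaks in these breaks was not tested.

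The 10 domains with the widest peak all entered through a knockout peak, as the widest control peak was shorter than any of theirs, so fuller coverage in knockout libraries follows in part from the choice. The widest domain, chr10:42790520-42817396, spanned 26877 bp. CFL1 knockout 5 held it as 1 peak of 26803 bp, METTL3 knockout 3 and 5 as peaks of 26874 and 26802 bp, and CFL1 knockout 3 as 3 peaks of up to 13178 bp. Control 1 and 2 held 3 and 5 short peaks that covered 5.48% and 10.9% of it. The strongest −log10 q there was 9.56 and 51.2 for control, 225 and 349 for CFL1 knockout and 336 and 399 for METTL3 knockout. Both control libraries lay far below all 4 knockout libraries in coverage and in −log10 q.

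At chr16:88493309-88506562 (13254 bp) all libraries held wide peaks but joined them to a different degree. CFL1 knockout 3 and 5 each held 1 peak, of 13254 and 12934 bp, METTL3 knockout 3 and 5 held 2 and 6, and control 1 and 2 held 9 and 7. Coverage was 73.2% and 81.3% for control, 100% and 97.6% for CFL1 knockout and 91.8% and 88.7% for METTL3 knockout, so the control libraries were the lowest. The summit of the strongest peak lay 8686 to 8739 bp from the domain's start in the 6 libraries, which is close for a domain of this size. The domain chr10:18849904-18862583 (12680 bp) was 1 peak of 10005 to 10059 bp in each knockout library and 6 peaks in each control library. Its strongest −log10 q was 6.72 and 6.81 for control, 146 and 174 for CFL1 knockout and 166 and 98.1 for METTL3 knockout, without overlap between control and the knockouts.

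The other domains among these 10 varied. At chr17:79497253-79508788, coverage was 51.6% and 54.1% for control, 95.5% and 96.1% for CFL1 knockout and 66.5% and 56.3% for METTL3 knockout, with 9 and 11 separate peaks in control. There the METTL3 knockout lay near control and the CFL1 knockout far above. At chr11:1262003-1273298, coverage was 14.4% and 8.01% for control, 98.3% and 94.0% for CFL1 knockout and 81.6% and 67.6% for METTL3 knockout, and fold enrichment of the strongest peak was 11.3 and 12.3 for control, 51.8 and 71.7 for CFL1 knockout and 52.6 and 40.1 for METTL3 knockout. All 4 knockout libraries exceeded control in both measures. At chr5:470936-479081, coverage was 44.8% and 49.6% for control, 97.9% and 95.3% for CFL1 knockout and 84.5% and 85.7% for METTL3 knockout. At chr5:666788-676859 it was 72.0% and 67.8% for control, 99.9% and 99.9% for CFL1 knockout and 68.4% and 70.5% for METTL3 knockout, so that METTL3 knockout libraries overlapped the control range and CFL1 knockout libraries did not. At chr5:1041101-1048855, a single knockout peak reached 7752 bp, and −log10 q of the strongest peak was 17.03 and 9.07 for control, 152 and 244.5 for CFL1 knockout and 174 and 139.7 for METTL3 knockout. The domains chr2:98090559-98101699 and chr16:2678507-2690980 were wide in all 6 libraries, with coverage of 67.5 to 72.4% and 74.3 to 80.4% in control against 85.9 to 96.2% and 88.4 to 95.8% in the knockouts.

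**Figure D3:**
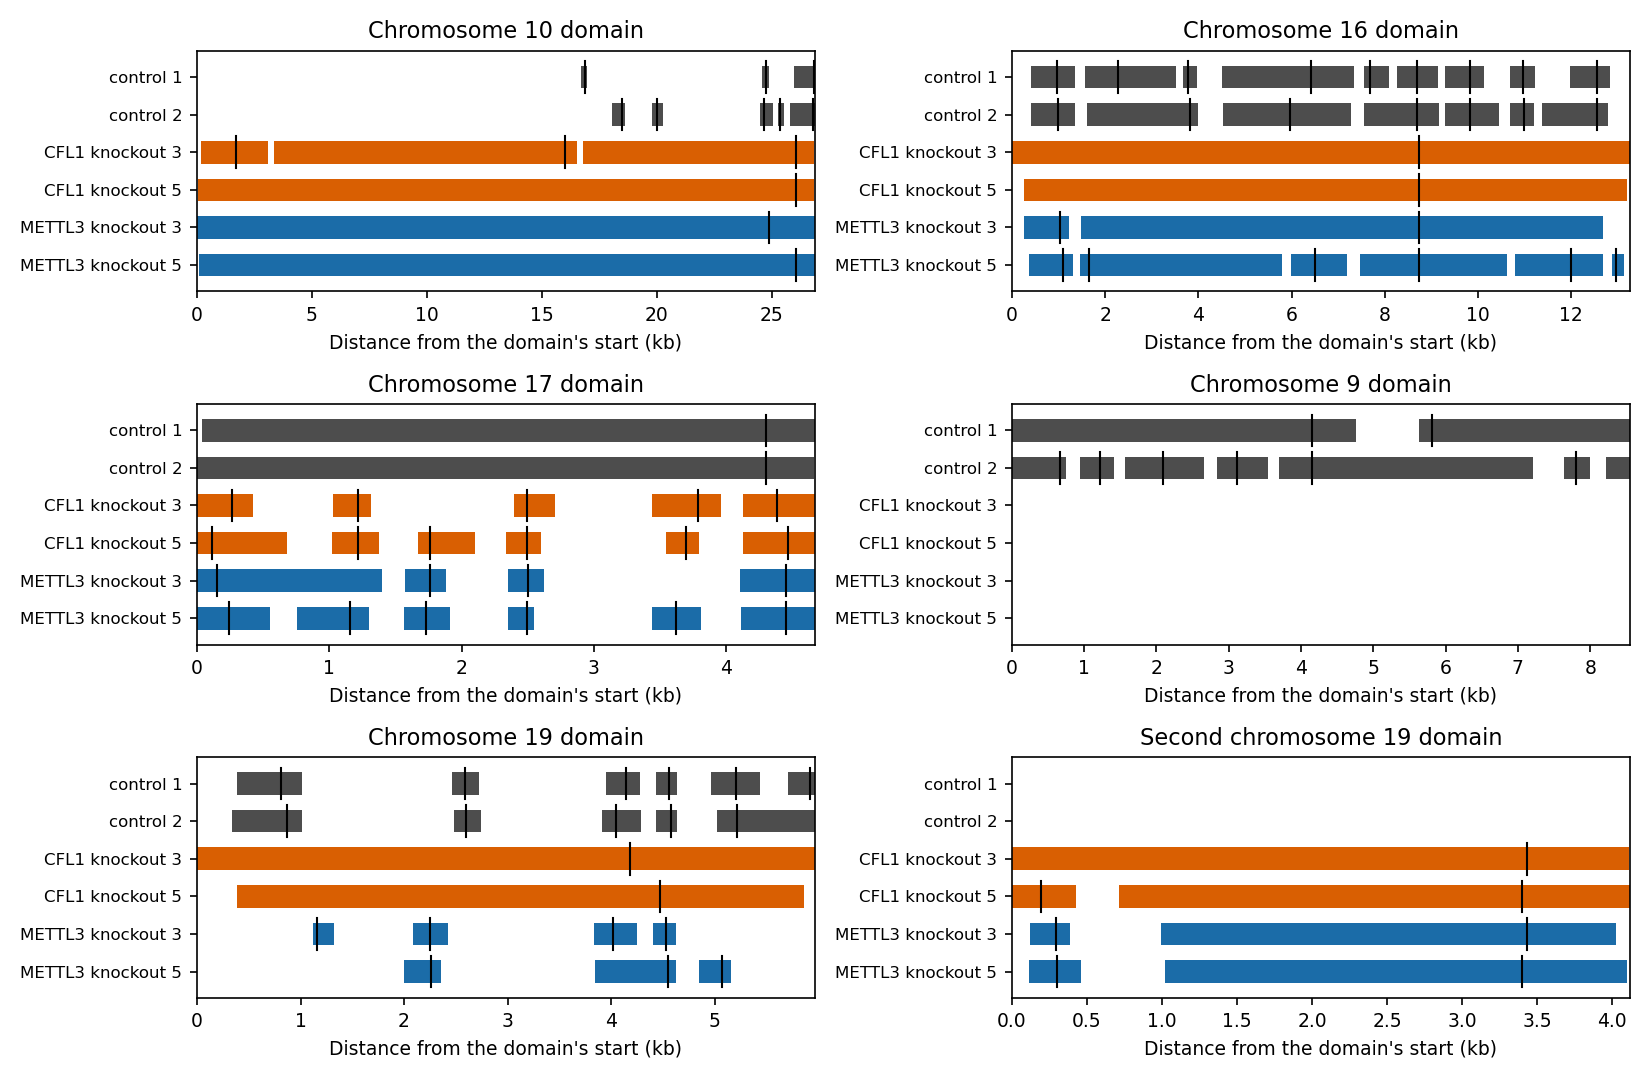
Peaks (bars) and summits (black ticks) of each library along 6 domains, drawn to scale from the domain's start (horizontal axes, kb): the domains of 26877, 13254, 4671, 8547, 5969 and 4116 bp on chromosomes 10, 16, 17, 9, 19 and 19. On chromosomes 10 and 16 knockout libraries hold long bars where control holds short ones, on chromosome 17 the reverse, and the chromosome 9 domain and the second chromosome 19 domain have no bar in the knockouts and in control, respectively.

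The domains wide in all 6 libraries with the strongest peaks differed between groups in strength and, in part, in where the summit lay. The 6 with the highest −log10 q were chr16:2678507-2690980, chr7:143980316-143984228, chr20:61510494-61513803, chr19:58418821-58421671, chr7:100729530-100733395 and chr21:45644505-45649477. At chr7:143980316-143984228, −log10 q was 216 and 192 for control, 852 and 754 for CFL1 knockout and 945 and 1006 for METTL3 knockout, and the fold enrichment 8.04 and 6.10 for control, 34.0 and 24.2 for CFL1 knockout and 29.95 and 42.3 for METTL3 knockout. Its strongest summit lay 844 and 798 bp from the start in control and 3065 to 3068 bp from it in the 4 knockout libraries. At chr21:45644505-45649477, by contrast, the summit lay at 2715 to 2739 bp in all 6, and the fold enrichment was 14.7 and 13.6 for control, 44.4 and 78.2 for CFL1 knockout and 43.2 and 34.2 for METTL3 knockout. At chr20:61510494-61513803, 1 peak per library spanned 2655 to 2680 bp in control and 3191 to 3308 bp in the knockouts, and fold and −log10 q went apart. Its −log10 q was 211 and 259 for control, 374 and 406 for CFL1 knockout and 581 and 733 for METTL3 knockout, while the fold was 11.6 and 12.2 for control, 5.90 and 6.0 for CFL1 knockout and 12.3 and 18.4 for METTL3 knockout, lowest in the CFL1 knockout. At chr19:58418821-58421671 the summit was also shared (2026 to 2066 bp), and −log10 q was 182 and 270.4 for control, 394 and 533 for CFL1 knockout and 636 and 718 for METTL3 knockout. In all 6 domains every knockout library exceeded both control libraries in −log10 q, but they were picked by their highest −log10 q, which can favour the 4 knockout libraries over 2 of control.

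A wide peak in both control libraries and in no knockout library was found in 156 domains (6.37%, against 0.0928% of all merged regions), with a median width of 2404 bp. For wide peaks such a gap to all regions follows from the rule, and nothing is read from it. Without control 1 there were 334 and without control 2 there were 258, since 1 library then has to hold the wide peak. In these domains 91.7% to 92.9% held narrower peaks in a given knockout library, which covered a median of 56.9% to 71.5% of the domain. The −log10 q of the strongest peak there had medians of 95.3 and 128 for control, 73.4 and 107 for CFL1 knockout and 137 and 116 for METTL3 knockout, so METTL3 knockout 3 was above both control libraries and METTL3 knockout 5 between them. The domain chr17:417930-422600 shows this form: control 1 and 2 each held 1 peak, of 4634 and 4662 bp, and the knockout libraries 4 to 6 peaks of at most 1419 bp. At chr19:780493-787736, which holds the widest control peak, coverage was 95.2% and 95.9% for control, 37.4% and 42.2% for CFL1 knockout and 51.3% and 46.2% for METTL3 knockout, while −log10 q was higher in every knockout library (141.5 to 182) than in control (81.5 to 83.6). The others named were chr19:12687811-12692556, chr8:146032268-146036836 and chr5:37099254-37103610, with coverage of 92.9 to 100%, 93.6 to 100% and 80.5 to 100% in control and 69.8 to 74.4%, 75.3 to 80.5% and 62 to 83.2% in the knockouts. In the last of these the ranges of coverage overlapped for 1 CFL1 knockout library.

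In 36 domains (1.47%) both control libraries held peaks and no knockout library held any, against 13.5% of all merged regions and 7.22% of the narrower class. The largest, chr9:131426863-131435409, covered 8547 bp, of which control 1 filled 89.8% with 2 peaks and control 2 84.3% with 7. Its −log10 q reached 39.6 and 21.6, and the nearest peak of either knockout lay 9653 bp away. A second such domain, chr9:131422515-131425627, ended just before it and also held no knockout peak. The domain chr17:1284290-1288299 was covered to 96.8% and 100% in control (−log10 q 65.1 and 64.3), and the nearest knockout peak was 15765 bp away. Further ones, chosen like these after their values were seen, were chr17:42900648-42903973, chr3:49120092-49123220 and chr8:145522822-145526098, the last with knockout peaks 217 and 221 bp from its edge. Peak numbers rise with position in every library, so, if the numbers count peaks as they were called, consecutive numbers on both sides of an empty domain mean that no peak was taken out of the list there. This was so for 94 of the 144 pairs of such a domain and a knockout library, in at least 1 library for 34 of the 36 domains and in all 4 for 13. At chr9:131426863-131435409 it was so in CFL1 knockout 3 and METTL3 knockout 3, and at chr3:49120092-49123220 in all 4. The amount of RNA in the input was not looked at, so an absent peak cannot be told apart from an absent transcript.

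The opposite pattern, a wide peak in each of the 4 knockout libraries but none in control, was found in 138 domains (5.63%, against 0.0821% of all merged regions), with a median width of 2962.5 bp. There were 210 without CFL1 knockout 3. Both control libraries held narrower peaks in 97.1% of them, at a median coverage of 68.1% and 68.6%. Median −log10 q of the strongest peak was 132 and 168 in control and 166 to 202 in the knockout libraries, where control 2 and CFL1 knockout 3 were close. Besides the domains already given on chromosomes 10, 17 and 5, the named ones were chr10:129900924-129907736, chr16:89345615-89352167 and chr21:46699807-46706572. At chr10:129900924-129907736, control libraries held 7 peaks each that covered 48.5% and 49.3%, and METTL3 knockout 3 and 5 held 1 peak each that covered 98.7% and 99.6%. Its fold enrichment was 4.03 and 4.09 for control, 2.35 and 2.32 for CFL1 knockout and 2.65 and 4.22 for METTL3 knockout, so the fold was higher in control than in all knockout libraries but METTL3 knockout 5. At chr16:89345615-89352167, fold was likewise 9.28 and 6.78 for control, 3.71 and 4.31 for CFL1 knockout and 4.79 and 5.31 for METTL3 knockout, while coverage was 65.0% and 55.6% for control, 96.9% and 97.7% for CFL1 knockout and 99.8% and 99.5% for METTL3 knockout. At chr21:46699807-46706572, coverage was 62.4% and 68.8% for control, 93.9% and 91.5% for CFL1 knockout and 67.7% and 77.9% for METTL3 knockout, with METTL3 knockout 3 below control 2.

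Set against 1 knockout at a time, more domains were wide on the knockout side. Both control libraries but no CFL1 knockout library held a wide peak in 251 domains (10.2%, against 0.149% of all merged regions), and both CFL1 knockout libraries but no control library in 349 domains (14.2%, against 0.208% of all merged regions). For METTL3 the counts were 197 domains (8.04%, against 0.117% of all merged regions) on the control side and 355 domains (14.5%, against 0.211% of all merged regions) on the knockout side. Counted by peaks of any width, few domains were empty on either side. Peaks of any width include the wide peaks that made the domains, and 4 of the 6 libraries behind these were knockouts. The counts are therefore given as a description with no test. Control held peaks and CFL1 knockout none in 40 domains (1.63%, against 14.9% of all merged regions), and CFL1 knockout held peaks and control none in 104 domains (4.24%, against 8.38% of all merged regions). Control held peaks and METTL3 knockout none in 40 domains (1.63%, against 14.8% of all merged regions), and METTL3 knockout held peaks and control none in 96 domains (3.92%, against 8.26% of all merged regions). All 4 shares of domains were below those of all merged regions, but a longer interval is less easily empty. These pairs of counts share the control libraries.

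In 85 domains (3.47%) all 4 knockout libraries held peaks and neither control library held any, close to the 3.57% of all merged regions and below the 6.90% of the narrower class. Only 3 of them were wide in all 4, and METTL3 knockout 3 was wide in 41 of them, more than CFL1 knockout 3 (31), CFL1 knockout 5 (25) or METTL3 knockout 5 (22). The strongest of those named, after their values were seen, was chr19:50999406-51003521, with −log10 q of 919 and 866 in the CFL1 knockout and 336 and 244 in the METTL3 knockout, and folds of 35.5, 69.2, 21.4 and 18.5. The nearest control peak lay 5740 bp away, but both control libraries had skipped numbers across it, so a peak removed from the list cannot be told apart from none called. At chr16:16457399-16461717 the numbers were consecutive in both control libraries, and −log10 q was 141 and 220.2 in the CFL1 knockout and 123 and 74.8 in the METTL3 knockout. A control peak lay 224 bp outside its edge. At chr11:1705178-1708700, CFL1 knockout 3 and 5 covered 100% and 82.0% and METTL3 knockout 3 and 5 only 9.62% and 5.73%. The domains chr12:96709829-96714587, chr15:51324564-51329283 and chr20:44317968-44321627 were filled to 100% by 1 peak in METTL3 knockout 3, to 69.6%, 64.4% and 60.7% in METTL3 knockout 5, and to at most 43.4% in the CFL1 knockout. Over the 85 domains, 57 of 169 pairs with a control library had consecutive numbers, and 14 domains had them in both.

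A wide peak in both CFL1 knockout libraries and in no other was found in 139 domains (5.67%, against 0.0827% of all merged regions), and 8 domains had peaks of any width in those 2 libraries alone (0.327%, against 2.93% of all merged regions). In the 139, median coverage was 48.1% and 50.8% in control, 97.9% and 98.4% in the CFL1 knockout and 67.5% and 67.6% in the METTL3 knockout. The named ones were chr21:44834875-44841851, chr19:1764121-1770089, chr19:1155924-1161902, chr18:77632253-77637304, chr17:3559752-3564665 and chr4:3490301-3495529. At chr21:44834875-44841851, coverage was 13.99% and 13.0% for control, 97.5% and 86.2% for CFL1 knockout and 44.3% and 44.9% for METTL3 knockout, and the fold of the strongest peak was 14.7 and 14.6 for control, 80.2 and 47.8 for CFL1 knockout and 38.9 and 114 for METTL3 knockout. At chr19:1764121-1770089 coverage was 36.2% and 41.1% for control, 100% and 91.8% for CFL1 knockout and 19.7% and 24.3% for METTL3 knockout, so the METTL3 knockout lay below control and the CFL1 knockout above it. The same order held at chr19:1155924-1161902, with 28.6% and 23.6% for control, 97.3% and 82.5% for CFL1 knockout and 14.9% and 11.3% for METTL3 knockout. At chr18:77632253-77637304, −log10 q was 15.02 and 8.70 for control, 124 and 79.1 for CFL1 knockout and 39.4 and 8.80 for METTL3 knockout, with the CFL1 knockout above all others. At chr17:3559752-3564665, coverage was 58.1% and 50.8% for control, 98.3% and 99.8% for CFL1 knockout and 54.2% and 57.4% for METTL3 knockout, and METTL3 knockout and control overlapped. At chr4:3490301-3495529, control 1 held no peak, control 2 held 1 with −log10 q 2.65, and CFL1 knockout 3 and 5 reached 119 and 118.

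Both METTL3 knockout libraries alone held a wide peak in 126 domains (5.14%, against 0.0743% of all merged regions), and peaks of any width in 2 (0.0816%, against 2.62% of all merged regions). Median coverage in the former was 61.1% and 61.4% in control, 66.6% and 72.7% in the CFL1 knockout and 99.1% and 96.8% in the METTL3 knockout. The named ones were chr7:32722483-32728136, chr1:3694087-3698317, chr1:149821617-149825771, chr15:63909218-63914385, chr9:66478269-66482437 and chr7:11985777-11989347. At chr7:32722483-32728136 the steps were graded, with coverage of 31.8% and 34.1% for control, 67.9% and 87.8% for CFL1 knockout and 94.9% and 99.7% for METTL3 knockout, and the groups did not overlap. At chr9:66478269-66482437 the METTL3 knockout stood alone, with −log10 q of 45.4 and 17.4 for control, 14.2 and 58.3 for CFL1 knockout and 176 and 143 for METTL3 knockout. Coverage there was 35.8% and 47.7% for control, 25.7% and 37.0% for CFL1 knockout and 98.6% and 88.5% for METTL3 knockout. In −log10 q, CFL1 knockout 5 was nearer to control 1 than to the METTL3 knockout. At chr1:149821617-149825771, coverage was 47.6% and 32.9% for control, 50.6% and 50.2% for CFL1 knockout and 90.7% and 100% for METTL3 knockout. At chr1:3694087-3698317 it was 42.5% and 37.7% for control, 42.9% and 54.8% for CFL1 knockout and 96.4% and 99.8% for METTL3 knockout, where CFL1 knockout 3 was level with control 1. At chr15:63909218-63914385 it was 40.2% and 43.0% for control, 71.4% and 66.0% for CFL1 knockout and 95.2% and 87.2% for METTL3 knockout, and at chr7:11985777-11989347 35.4% and 37.7% for control, 49.1% and 69.1% for CFL1 knockout and 99.5% and 86.0% for METTL3 knockout. In both, CFL1 knockout libraries lay between control and METTL3 knockout.

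Where the strongest peak of a domain had its summit differed between control and the knockouts. The rule did not use summits. In the 2194 domains with peaks in all 6 libraries, the median distance between the summits of the strongest peaks was 14 to 26 bp for the 3 pairs of libraries within a group, 66 to 80 bp for the 4 pairs between the knockouts and 407 to 434 bp for the 8 pairs of a control and a knockout library. The shortest of the last lay far above the longest of the others. Summits fell within 200 bp of each other in 72.6 to 81.0% of domains within groups and in 34.1 to 36.5% between control and a knockout. In the 214 domains that were wide in all 6 libraries, where no library differed by the rule, the median distances were 6 to 7 bp within groups and 494.5 to 621.5 bp between control and a knockout. The same order of pairs was present in narrower regions. For regions whose widest peak had 1000 bp up to the threshold, distances were 15 to 28 bp within groups and 177 to 208 bp between control and a knockout, and for regions under 1000 bp 10 to 17 bp and 68 to 81 bp. As a share of the region's width, the distance between control and a knockout was 15.1 to 16.7% in domains, 12.3 to 14.1% in the next class and 10.3 to 12.2% in the narrowest. No test was run on these distances, as pairs share libraries.

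**Figure D4:**
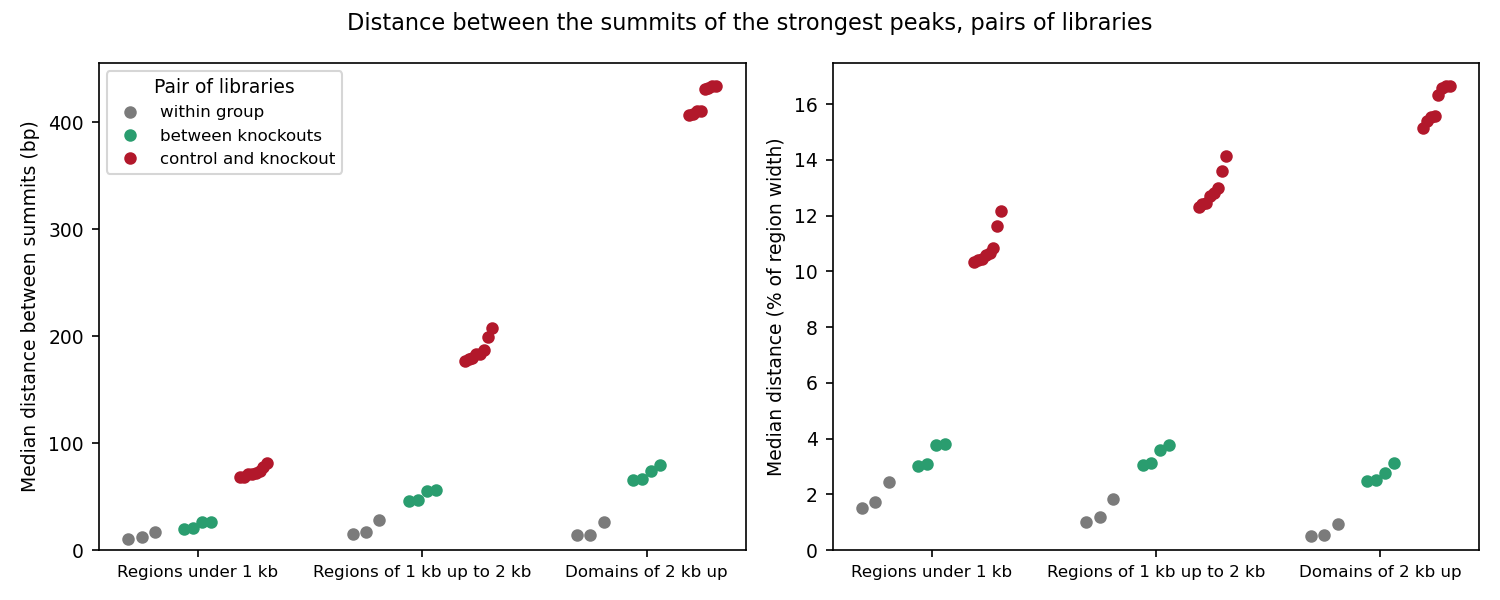
Median distance between the summits of the strongest peaks for each of the 15 pairs of libraries (points), in bp (left) and as a percentage of the region's width (right), by width class of the regions with peaks in all 6 libraries. Pairs of a control and a knockout library (red) lie above all other pairs in each class, at 407 to 434 bp in the domains of 2 kb up.

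Wide peaks were strong peaks, with exceptions. Their median fold enrichment was 8.71 and 8.93 for control, 8.78 and 9.77 for CFL1 knockout and 11.2 and 12.1 for METTL3 knockout, against 3.92 to 4.75 over all peaks of a library. The METTL3 knockout was the highest also among peaks of 1000 bp up to the threshold, at 9.37 and 10.2 against 7.47 and 7.35 in control. Of the wide peaks, 62.6 to 72.1% were among the strongest 10% of their library by −log10 q. Others were weak, with −log10 q down to 2.86 and a fold down to 1.44. Over all peaks of a library, width and −log10 q had a Spearman rho of 0.554 to 0.628, and within wide peaks of 0.0687 to 0.218. These are correlations across peaks of 1 library, which are not independent, and both values come from the same call. The summit lay within the outer 10% of the peak at either end in 10.7 to 13.3% of wide peaks, against 2.42 to 4.53% of peaks of 1000 bp up to the threshold.

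Domains were unevenly spread over the chromosomes. Chromosome 19 held 297 of them (12.1%) against 6.02% of all merged regions, chromosome 16 held 172 (7.02% against 4.73%) and chromosome 21 held 50 (2.04% against 1.23%). Chromosome 3 lay at the other end, with 92 domains (3.76% against 5.74%). Of regions whose widest peak had 1000 bp up to the threshold, chromosomes 19, 16, 21 and 3 held 8.24%, 5.43%, 1.38% and 5.37%. These shares lay between those of domains and of all merged regions. Chromosome 19 wide peaks numbered 115 and 114 for control, 126 and 151 for CFL1 knockout and 147 and 123 for METTL3 knockout, and chromosome 16 wide peaks 60 and 66, 100 and 87, and 78 and 80 in the same order. Counts of wide peaks were above both control libraries in all 4 knockout libraries on 7 of the 22 chromosomes (1, 7, 8, 9, 16, 19 and 22) and below both on 0. Knockout libraries held more wide peaks in total. As a share of each library's wide peaks, only chromosome 7 of these kept the order. It held 3.57% and 3.77% in control and 4.38% to 5.02% in the knockout libraries. Chromosome 19 held 14.6% and 12.3% in control and 11.9% to 13.8% in the knockout libraries.

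Chromosome ends were rich in domains, and the CFL1 knockout had the largest share of its peaks there, among wide peaks and among all peaks. The distance of 3 Mb from the first base or from the last listed peak of a chromosome was set after the positions had been seen. Within it lay 24.2% of domains, 16.4% of regions whose widest peak had 1000 bp up to the threshold and 10.7% of all merged regions. By library, it held 23.6% and 21.9% of wide peaks in control, 35.2% and 28.4% in the CFL1 knockout and 19.3% and 19.5% in the METTL3 knockout. The groups did not overlap, and the CFL1 knockout exceeded the METTL3 knockout by 12.4 percentage points (two-sided exact permutation p = 0.333, the smallest possible). The share of all peaks there was 10.3% and 10.1% in control, 15.5% and 14.8% in the CFL1 knockout and 12.1% and 12.4% in the METTL3 knockout. The CFL1 knockout was thus highest for all peaks as well as for wide ones. The METTL3 knockout stood above control for all peaks and below it for wide ones. Of the domains wide in both CFL1 knockout libraries alone 49.6% lay near an end, against 14.3% of those wide in both METTL3 knockout libraries alone, 20.5% of those wide in both control libraries alone and 29.4% of those wide in all 6.

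**Figure D5:**
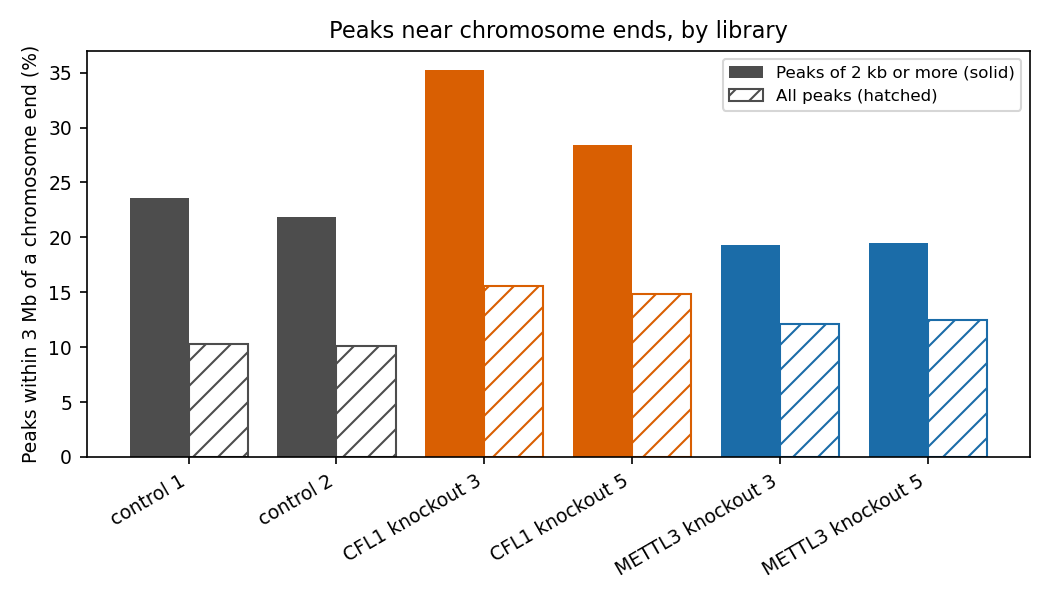
Share of peaks within 3 Mb of a chromosome end (vertical axis, percent from 0) by library, for peaks of 2 kb or more (solid bars) and for all peaks (hatched bars). The solid bars of CFL1 knockout 3 and 5 reach 35.2% and 28.4%, above both control libraries, and those of the METTL3 knockout lie below control.

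Some domains lay close to each other. Of all domains, 508 (20.7%) had another within 10000 bp, in 221 runs of 2 or more, of which 46 had 3 or more. The same share was not worked out for all merged regions, so closeness is not read as particular to domains. Wide peaks that do not overlap stay separate domains, which can itself make runs. The longest run held 7 domains over 50304 bp at chr21:46699807-46750110, of which 27038 bp were under domains. It begins with chr21:46699807-46706572, and its members differed in kind: 2 were wide in the 4 knockout libraries alone, 1 in all 6 libraries, 1 in the 2 CFL1 knockout libraries and 3 in 1 library each. Runs of 5 lay at chr16:1118446-1159943, chr1:838872-860897 and chr17:22245581-22262686. At chr19:1155924-1174060, which begins with chr19:1155924-1161902, all 4 domains were wide in CFL1 knockout libraries and in no library of another group.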

How the data were processed

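Peaks of m6A were listed for 6 antibody libraries of PANC-1. Per the submitters' processing notes, the authors used STAR, MACS2, bedtools and hg19; versions, settings and whether input served as background are unknown here. Per peak, the deposited values used were its interval, summit offset, fold enrichment (a ratio whose background is not stated) and −log10 q, both from the authors' peak caller, and they served only to describe, rank or filter peaks. The 6 other value columns (2 in each list) were not used. Libraries were told apart by the number in the peak names, so each list joins separately called libraries. The other 20 samples were not analysed here.

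Wide peaks overlapping by at least 1 bp were merged (Python 3.11.15, pandas 2.3.3, numpy 2.4.6), and positions are 1-based. Coverage is the percentage of a domain under a library's peaks. Shares of wide peaks near chromosome ends were compared by two-sided exact permutation of libraries, which with 2 against 2 cannot go below 0.333. Spearman correlations were computed with scipy 1.17.1. Planned tests of wide peaks per library, coverage and domains with a peak are not given, because width chose the members and their outlines. Named domains were the 10 with the widest peak, the 6 wide in all libraries with the highest −log10 q, up to 6 of each group pattern by widest peak, and the 3 peaks on each side of the threshold; 11 domains were added after their values were seen. The members and lists were chosen with earlier results of these data known. The scripts were tested on simulated data.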

Additional observations from a re-analysis of the deposited data

Results flagged for a closer look

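At chr19:1764121-1770089 the CFL1 knockout lay above control and the METTL3 knockout below it in every library. Peaks covered 36.2% and 41.1% of the domain for control, 100% and 91.8% for CFL1 knockout and 19.7% and 24.3% for METTL3 knockout, so the knockouts differed by 73.9 percentage points. At chr19:1155924-1161902 the knockouts differed by 76.8 points in the same order. Neither difference between the knockouts was tested, and both domains were chosen because CFL1 knockout libraries alone were wide there.

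Chromosome X lay outside the rule but also held peaks of 2000 bp or more. There were 17 and 26 for control, 22 and 35 for CFL1 knockout and 43 and 31 for METTL3 knockout. The METTL3 knockout mean was 37, and both of its libraries lay above both control libraries. The same order held for wide peaks on chromosomes 1 to 22, at 1234 and 1004 for METTL3 knockout against 785 and 928 for control. The share of chromosome X peaks that were wide was not worked out.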

How the results depend on the processing

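No difference in wide peaks per library, coverage, domains with a peak, or share near chromosome ends changed its sign under the alternatives tried. Every alternative still drew the domains by width, so the differences in coverage and in domains with a peak cannot be told apart from the rule. Domains wide in control alone (156) outnumbered those wide in the 4 knockout libraries alone (138). This order turned at 3000 bp (31 against 50), without CFL1 knockout 3 (162 against 210) and without METTL3 knockout 5 (172 against 178). Wide peaks are needed in 2 libraries for the first count and in 4 for the second, so the order of the counts is not read as a result. With wide peaks set at 1500 bp there were 5335 domains, 662 of them wide in all libraries, 377 in control alone and 302 in the 4 knockout libraries alone. At 3000 bp the counts were 566, 21, 31 and 50. The mean summit distance between control and a knockout library (426 bp over all domains) was 326 bp at 1500 bp and 714 bp at 3000 bp. It was 402 bp with −log10 q of at least 10, 414 bp with a fold of at least 4 and 440 bp with overlapping narrower peaks joined to the domain. In domains wide in all libraries it was 563.5 bp, against 6.33 bp within groups. Leaving out 1 library at a time gave 162 to 334 domains wide in control alone and 157 to 210 wide in the 4 knockout libraries alone, since fewer libraries then have to share the pattern. Over the same omissions the excess in coverage was 6.98 to 13.3 points for CFL1 knockout and 5.86 to 12.9 for METTL3 knockout, and CFL1 knockout exceeded METTL3 knockout at chromosome ends by 9.04 to 15.8 points. The coverage differences of the 47 named domains were recomputed under 8 alternatives. Of these values, 52 moved by more than the SD over the 4 knockout libraries, both knockouts pooled, and 324 did not. A reversal of sign was looked for only in the 38 domains whose knockout and control libraries did not overlap in coverage, and 0 were found. No paired analysis was possible because the digits in the knockouts' peak names (3 and 5) match no replicate number of the labels. The alternatives on summits, chromosome ends and the libraries that make a domain were chosen after seeing the data. Read depth is unknown, so how far it sets the number and width of peaks was not tested.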

Other observations

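Among windows of 1 Mb, the 15 with the most domains held 256 (10.4%) of all domains and 2.55% of all merged regions, with 194 to 389 merged regions each. The libraries with wide peaks there differed. The window of chromosome 19 from 58000001 to 59000000 held the most domains, 22 among 283 merged regions, and wide peaks numbered 12 and 10 for control, 10 and 12 for CFL1 knockout and 12 and 10 for METTL3 knockout. In the window from 1000001 to 2000000 of the same chromosome (20 domains, 361 regions), each CFL1 knockout library held 13 wide peaks, against 4 in each control library and 5 and 6 for METTL3 knockout. The first 1000000 bases of chromosome 11 (15 domains, 372 regions) held 14 and 9 wide peaks for CFL1 knockout, 0 and 1 for control and 0 and 3 for METTL3 knockout. On chromosome 5 from 140000001 to 141000000 (16 domains, 194 regions), METTL3 knockout held 13 and 9 wide peaks, CFL1 knockout 5 and 6, and control 7 and 9.

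In some windows the libraries of a group stood apart. On chromosome 8 from 145000001 to 146000000 (19 domains, 334 regions), CFL1 knockout 3 held 12 wide peaks and CFL1 knockout 5 held 6. On chromosome 19 from 53000001 to 54000000 (19 domains, 244 regions), CFL1 knockout 3 held 2 wide peaks and CFL1 knockout 5 held 10, while control held 15 and 12 and METTL3 knockout 17 and 16. The windows were picked after their counts were seen, width chose the domains, and no test was run.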
